A study of Mus musculus with 12 samples.

Results

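The collagen genes are the 40 genes on the array whose design name is Col, a number, the letter a and a number, out of 27670 gene names in all. They were carried by 78 probes, and for each gene the probe with the highest mean signal over the 4 groups was used. Livers came from male C57BL/6 mice, 3 animals in each of 4 groups: SIRT1+/+ mice (WT) on a high-fat diet, SIRT1+/- mice (Het) on a high-fat diet, WT mice on a low-fat diet and Het mice on a low-fat diet, all after 34 weeks. All groups share the strain, the sex and the time on diet, and the diets are named only as low-fat and high-fat. One 1-colour array was hybridised per mouse with RNA of whole liver, and the number of arrays, 3 a group, limits the precision of every value below.

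Collagens are trimers wound into a right-handed triple helix, in which glycine must occupy every position that faces the axis. Fibrillar types I, III and V form the rope-like fibrils of scar, type IV forms the sheet of basement membranes, and smaller types link fibrils, tether cells or shed fragments with activity of their own. In liver, stellate cells and portal fibroblasts are known as the main sources of fibrillar collagen, endothelial cells and stellate cells make basement membrane chains, and hepatocytes make type XVIII.

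The repeat that makes a collagen a collagen can be read in 3 of the 78 probes, and it is shown because these bases carry the glycine repeat of the helix from end to end. Capitals mark a GGN codon, which encodes glycine, at every ninth base, 5′ to 3′. None of the 41096 probes of other genes carried it from end to end.
Col5a1, probe at chr2:27994034-27996457 (mm7, plus strand): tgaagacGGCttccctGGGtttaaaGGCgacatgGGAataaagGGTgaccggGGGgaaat
Col5a3, probe at chr9:20655471-20656200 (mm7, minus strand): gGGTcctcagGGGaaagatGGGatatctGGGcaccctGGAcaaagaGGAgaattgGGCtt
Col11a2, probe at chr17:32131401-32131567 (mm7, plus strand): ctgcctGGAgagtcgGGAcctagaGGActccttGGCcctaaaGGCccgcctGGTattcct
Each of these probes is 60 bases long and covers 2424, 730 and 167 bases of genome in that order, so its sequence crosses at least 1 splice junction. None of them was the brightest probe of its gene. The Col5a1 repeat probe differed between the diets by 0.01 ± 0.22 over both genotypes, against 0.57 ± 0.15 for the brightest probe of that gene, which lies at chr2:28044683-28044742 on mm7.

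All values are intensities scaled so that the 75th percentile of each array is 1000, and differences are log2 differences of group means with their standard error (SE), from limma. A gene is called where the p adjusted by Benjamini-Hochberg over all 17041 genes tested is under 0.05. The share of spots well above background lay between 58.0% and 71.6% on the 12 arrays. Sirt1 itself read lower in Het than in WT livers without overlap on either diet, at -0.44 ± 0.09 over both diets, and did not pass the test over all genes (limma, adjusted p = 0.972). No source used here says whether that probe lies in the disrupted stretch of the gene. Hepatocyte markers were measured in every group, with a summed intensity of 9 of 10 markers between 1300620.0 and 1999050.0. No slide and no scan day held arrays of both diets, so diet, slide and scan day cannot be told apart in any diet difference. In whole liver, more collagen-making cells and more collagen RNA per cell cannot be told apart either.

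Of the 40 collagen genes, 24 were well above background on all 12 arrays, 15 on some arrays and 1, Col28a1, on none. The filter, which asks for a signal well above background throughout at least 1 group, let 30 genes into the test. The other 10 were Col2a1, Col4a3, Col4a5, Col9a1, Col10a1, Col17a1, Col19a1, Col24a1, Col25a1 and Col28a1.

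Livers on the high-fat diet carried more RNA of the fibrillar genes Col1a1, Col1a2, Col3a1, Col5a1 and Col5a2, of the basement membrane pair Col4a1 and Col4a2, and of Col6a3, Col8a1, Col12a1, Col15a1 and Col16a1. The brightest probes of Col13a1, Col4a6 and Col20a1 were lower, which for Col4a6 rests on 1 of its 2 kept probes. Col1a1 differed most, 4.19-fold over both genotypes. Over both genotypes 12 of the 30 tested genes were called higher and 3 lower, where 13.4% of all genes tested were called higher and 16.7% lower, 30.2% in all. In WT mice alone 5 were called higher and 3 lower, against 2.73% and 3.19% of all genes tested, 5.92% in all. In Het mice alone 9 were called higher and 2 lower, against 7.6% and 8.26% of all genes tested, 15.9% in all. The median difference of the 30 genes was 0.36 in WT, 0.28 in Het and 0.37 over both, beside -0.05, 0.00 and -0.03 for all genes tested. The Het median was 0.46 without Het high-fat replicate 2 or without Het low-fat replicate 1, and 0.11 without Het low-fat replicate 3. The WT median was 0.21 with normexp background correction. With no filter on dim probes the median of 39 genes was -0.0044 in WT and 0.20 over both. The 2 diet groups did not overlap for 17 of 30 genes in WT and 14 of 30 in Het, where 30.4% and 36.5% of all genes tested did not overlap. A filter that ignores the groups, well above background on all 12 arrays, left 24 collagen genes, with 5 higher and 3 lower in WT, 8 and 2 in Het, and 11 and 3 over both. Scaling each array to its median instead gave 8 higher and 3 lower in WT, and quantile normalization 5 and 2. In WT the share of all genes called higher also changed with these settings. It was 3.38% with that filter, 5.86% with the median and 3.81% with quantile normalization, beside 2.73% in the main fit. For all genes tested the share of WT calls that were higher was 46.2% with the 75th percentile, 61.8% with quantile normalization and 74.6% with the median, and the median over all genes moved from -0.05 to 0.07.

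**Figure D1:**
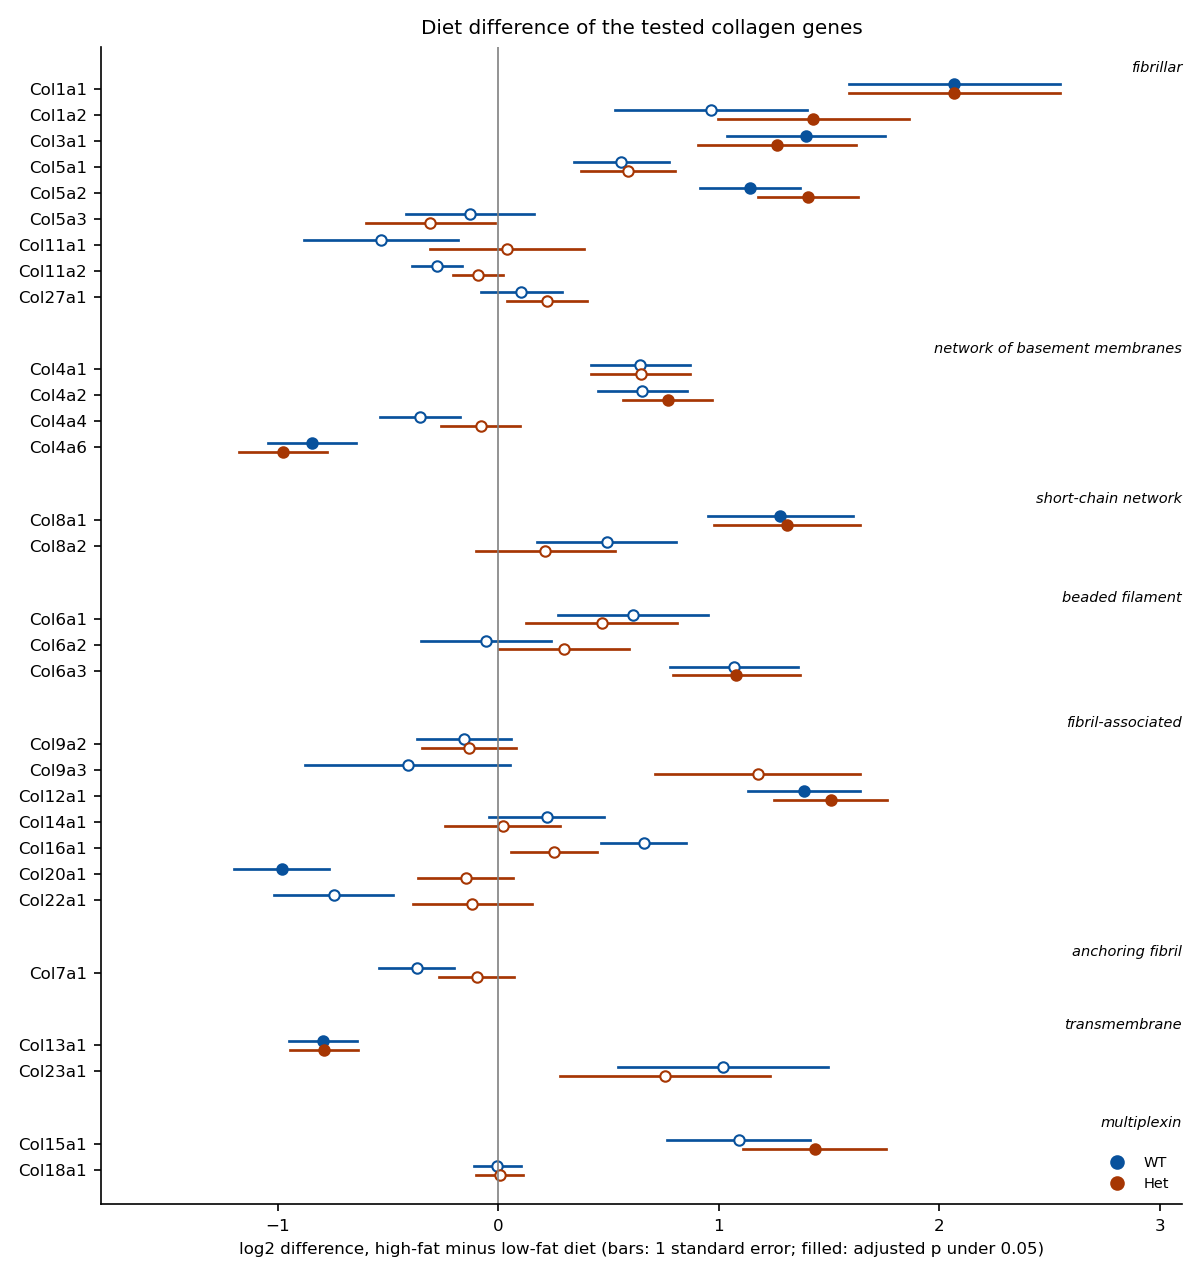
Log2 difference between the high-fat and the low-fat diet for the 30 tested collagen genes, in WT (blue) and Het (brown) mice, grouped by collagen class; bars are 1 standard error and filled points have an adjusted p under 0.05. Col1a1 lies farthest to the right in both genotypes, at 2.07 and 2.07, and Col13a1 and Col4a6 lie left of 0 in both.

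Type I collagen, the main fibril of scar, is built from the chains of Col1a1 and Col1a2. Col1a1 stood at 3627, 3360.0 and 2794 in WT and 7152, 2429.7 and 6791 in Het livers on the high-fat diet, and at 945, 498 and 983 in WT and 1673, 1583 and 606 in Het livers under low-fat feeding. On this brightest probe every high-fat liver was above every low-fat liver. The difference was 2.07 ± 0.48 in WT (adjusted p = 0.0361), 2.07 ± 0.48 in Het (adjusted p = 0.0191) and 2.07 ± 0.34 over both genotypes (adjusted p = 0.00207). The Col1a1 probe, at chr11:95060800-95060859 on mm7, was printed as 10 spots per array, which were averaged. A second Col1a1 probe was well above background on 11 arrays. Its diets were apart within each genotype, but Het low-fat replicate 1, at 119.7, was above WT high-fat replicate 3, at 110.5. With the mean of both probes the call in WT was lost, while the calls in Het and over both genotypes held.

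For its partner Col1a2 the high-fat values were 4112, 3715 and 3066 in WT and 6480.4, 3703 and 9569.7 in Het, and the low-fat values 1949.6, 1321 and 2447 in WT and 3499, 2922 and 1152 in Het. Diets did not overlap within a genotype, but 1 Het low-fat liver reached into the range of the WT high-fat livers. The difference passed in Het at 1.43 ± 0.43 (adjusted p = 0.0483) and over both genotypes at 1.20 ± 0.31 (adjusted p = 0.0154), and not in WT at 0.96 ± 0.43 (adjusted p = 0.191). The Het call held in 2 of the 12 fits that leave out 1 array.

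Col3a1, the homotrimer of type III that co-assembles with type I in young scar, read 6613, 6689 and 5397 in WT and 11255, 4844 and 8666 in Het on the high-fat diet. Under low-fat feeding it read 2493, 1909 and 2751 in WT and 4285, 4274 and 1858 in Het. The high-fat livers were all above the low-fat livers, by 1.40 ± 0.36 in WT (adjusted p = 0.0476) and 1.26 ± 0.36 in Het (adjusted p = 0.0381). With each of the 12 arrays left out the call held 3 times in WT, 5 times in Het and 12 times over both genotypes.

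Type V chains sit inside type I fibrils and set where a fibril starts and how thick it grows. Col5a2 values were tight in WT, at 142, 147 and 143 on the high-fat and 59.9, 71.3 and 64.9 under low-fat feeding. In Het mice they were 258, 124 and 208 on the high-fat and 61.8, 80.4 and 71.7 under low-fat feeding. No value of one diet reached the other, and the difference was 1.14 ± 0.23 in WT (adjusted p = 0.0234) and 1.41 ± 0.23 in Het (adjusted p = 0.00527).

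Col5a1, the chain that pairs with Col5a2, moved less, from 742, 658 and 868 to 1219.8, 1156 and 959.7 in WT and from 1044, 1054 and 639 to 1453, 1089.6 and 1509.6 in Het. It passed only over both genotypes, at 0.57 ± 0.15 (adjusted p = 0.0177), with some overlap between Het low-fat and WT high-fat livers. Col5a3, the remaining chain of the type, was measured at 4395, 3124 and 4992 in WT and 3265, 4221 and 4136 in Het on the high-fat and 4133, 3617 and 5992 in WT and 6495, 5405 and 3079 in Het under low-fat feeding. Its diets overlapped in both genotypes and its difference over both was -0.22 ± 0.21 (adjusted p = 0.444), while that of its repeat probe was 0.22 ± 0.25.

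Col11a1, Col11a2 and Col27a1 are fibrillar chains known from cartilage, and none was called. Over both genotypes Col11a1 differed by -0.25 ± 0.25, Col11a2 by -0.19 ± 0.08 and Col27a1 by 0.16 ± 0.13. Of the 9 tested fibrillar genes 5 were called higher over both genotypes and 0 lower, and 3 of 9 were called higher in WT and 4 of 9 in Het. Among all genes tested 13.4% were called higher and 16.7% lower over both genotypes, and 2.73% higher in WT and 7.6% in Het. At an unadjusted p under 0.05 the counts over both genotypes were 19 of the 30 collagen genes and 42.9% of all genes tested.

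**Figure D2:**
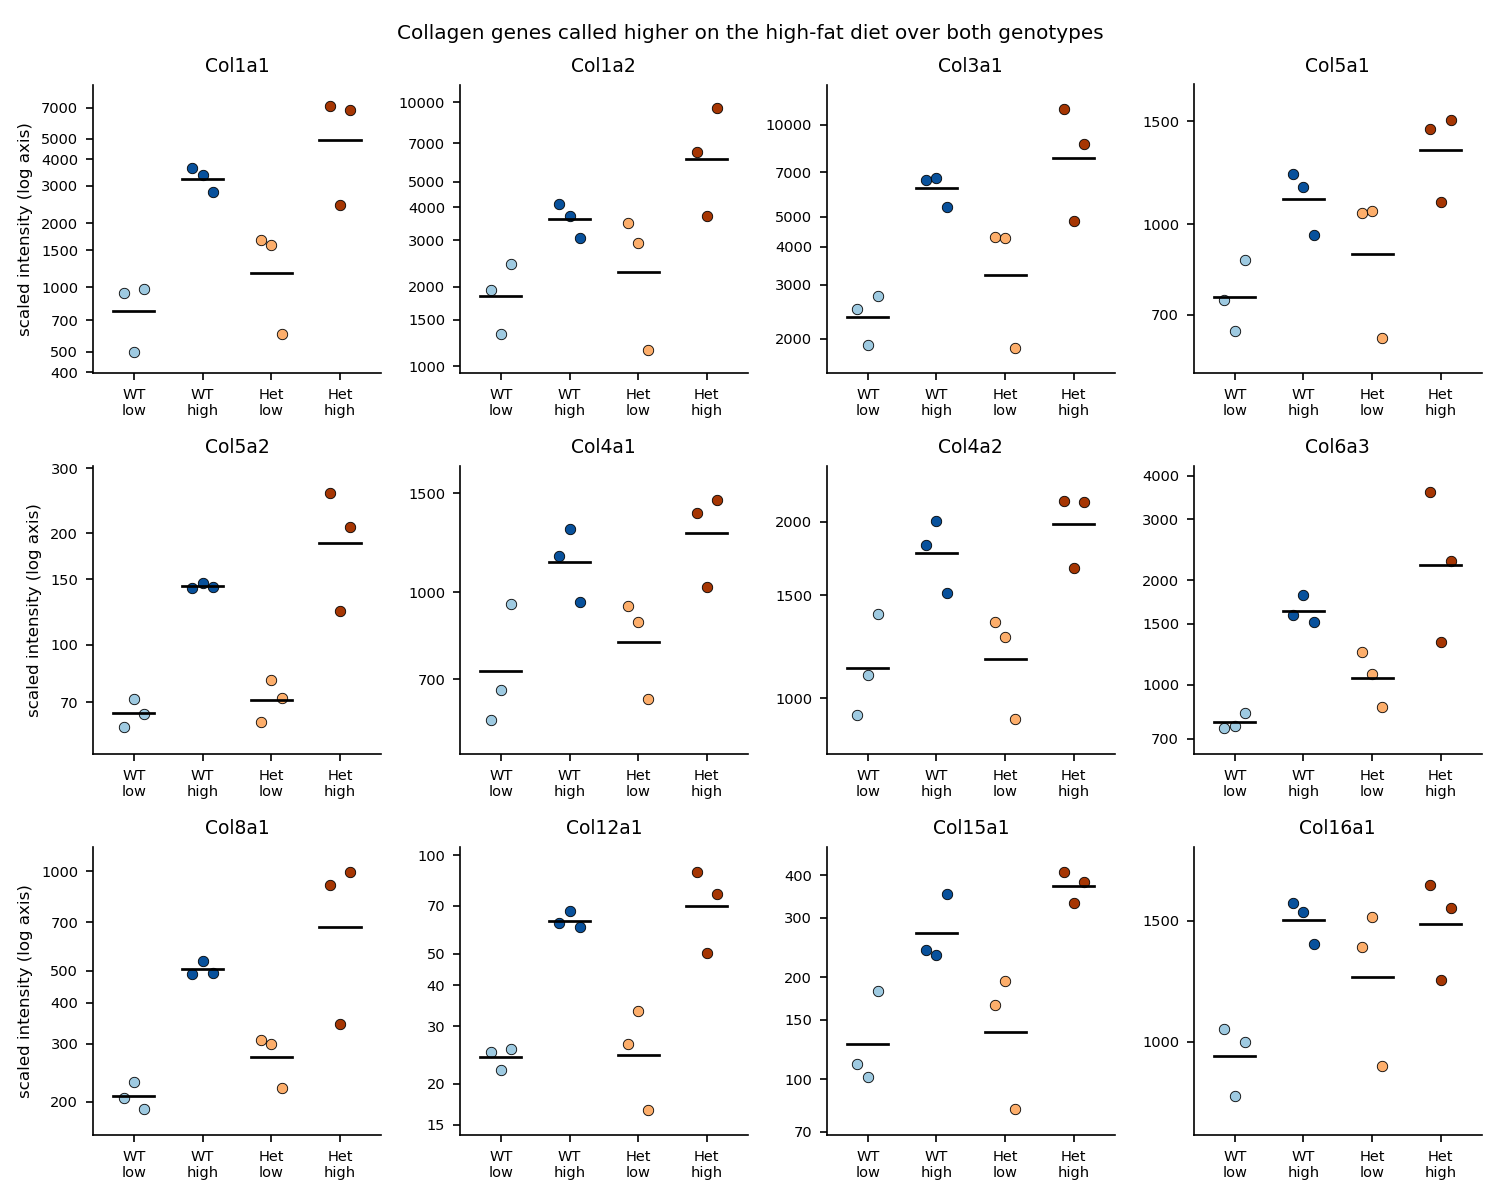
Scaled intensity (75th percentile of each array = 1000, log axis) of the 12 collagen genes called higher on the high-fat diet over both genotypes; each point is 1 mouse, in label order within a group, and lines are geometric means. Col1a1 spans 498 to 7152, and in all 12 panels Het high-fat replicate 2 is the lowest point of its group.

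Col3a1 and Col5a2 are neighbours, 24.6 kb apart on chromosome 1 of GRCm38, and both were higher in every high-fat group. The stretches before the start sites of Col1a2 and Col3a1 are shown because these genes rose over both genotypes and their windows differ in the letters of common promoter elements. Each line gives the 250 bases before the start site from RefSeq's GRCm38.p6. Capitals mark the letters of the CCAAT box, the GC box and the TATA box on either strand, at any distance from the start site. The letters are given below the lines.
Col1a2, chr6:4505368-4505617 (plus strand): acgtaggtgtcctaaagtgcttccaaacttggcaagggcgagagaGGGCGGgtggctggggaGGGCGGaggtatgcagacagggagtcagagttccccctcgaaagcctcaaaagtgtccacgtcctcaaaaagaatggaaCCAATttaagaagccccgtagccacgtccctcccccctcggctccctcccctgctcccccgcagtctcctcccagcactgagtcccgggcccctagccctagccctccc
Col3a1, chr1:45311288-45311537 (plus strand): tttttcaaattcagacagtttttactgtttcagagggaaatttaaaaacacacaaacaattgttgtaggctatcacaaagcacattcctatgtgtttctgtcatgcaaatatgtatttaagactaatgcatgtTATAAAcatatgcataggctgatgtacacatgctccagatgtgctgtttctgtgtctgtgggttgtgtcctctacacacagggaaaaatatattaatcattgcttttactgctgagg
The Col1a2 window holds 1 CCAAT and 2 GGGCGG, and the Col3a1 window 1 TATAAA. Over all 32851 windows of that length 33.8% hold CCAAT or ATTGG, 32.7% GGGCGG or CCGCCC, and 12.4% TATAAA or TTTATA. Windows were found for 32 of the 40 genes, 35 windows in all, of which 12 hold the first motif, 19 the second and 5 the third. Col1a1 and Col5a2 were not among the 32.

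Type IV collagen is the sheet of basement membranes, with a common network of Col4a1 and Col4a2 and rarer networks of the other 4 chains. Col4a1 gave 1160.2, 1293 and 962 in WT and 1386, 1019.6 and 1460.4 in Het on the high-fat diet, against 592, 668 and 954 in WT and 945, 886 and 644 in Het under low-fat feeding. Col4a2 gave 1826, 2009.7 and 1514 in WT and 2175, 1666 and 2161 in Het against 936, 1096 and 1392 in WT and 1352, 1272 and 922 in Het. Both were higher in all high-fat livers, by 0.64 ± 0.16 (adjusted p = 0.0125) and 0.71 ± 0.14 (adjusted p = 0.00503) over both genotypes.

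Within a genotype Col4a2 passed in Het at 0.77 ± 0.20 (adjusted p = 0.029), and Col4a1 in neither. A second probe of each gene gave 0.83 ± 0.17 and 0.77 ± 0.13 over both genotypes. The 2 genes lie head to head on chromosome 8, where their RefSeq records overlap at their starts.

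Col4a6, a chain of the rarer networks, ran the other way on its brightest probe. That probe, at chrX:135831206-135831265 on mm7, gave 575, 484 and 433 in WT and 463, 424 and 316 in Het on the high-fat diet, and 952, 1026 and 716 in WT and 750.2, 671 and 939 in Het under low-fat feeding. All high-fat livers were below all low-fat livers, at -0.85 ± 0.20 in WT (adjusted p = 0.0389) and -0.98 ± 0.20 in Het (adjusted p = 0.0118). A second probe lies at chrX:135829764-135829823.

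The second probe read 30.9, 46 and 34.4 in WT and 94.2, 18 and 48.3 in Het on the high-fat diet, and 11.8, 15.3 and 15.3 in WT and 22, 16 and 20.6 in Het under low-fat feeding. Its diets were apart in WT and overlapped in Het. It was well above background on 5 of 6 high-fat arrays and 0 of 6 low-fat arrays, so it passed the filter through the high-fat groups and no difference is given for it. The mean of both probes gave 0.18 over both genotypes, and the lower level of Col4a6 is that of the brightest probe alone. Col4a5, which starts 1.27 kb from Col4a6 on the X chromosome and reads in the other direction, was well above background on 5 arrays and was not tested.

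Col4a4 stood at 497, 380.2 and 349.8 in WT and 516, 445 and 369 in Het high-fat livers, and at 452, 627 and 487 in WT and 484, 428 and 481 in Het in low-fat livers. Its diets overlapped, with -0.22 ± 0.13 over both genotypes (adjusted p = 0.217). Its second probe was well above background on 1 of 6 high-fat and 5 of 6 low-fat arrays and passed the filter through the low-fat group of WT mice, so no difference is given for it. Col4a3 was well above background on 1 array.

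**Figure D3:**
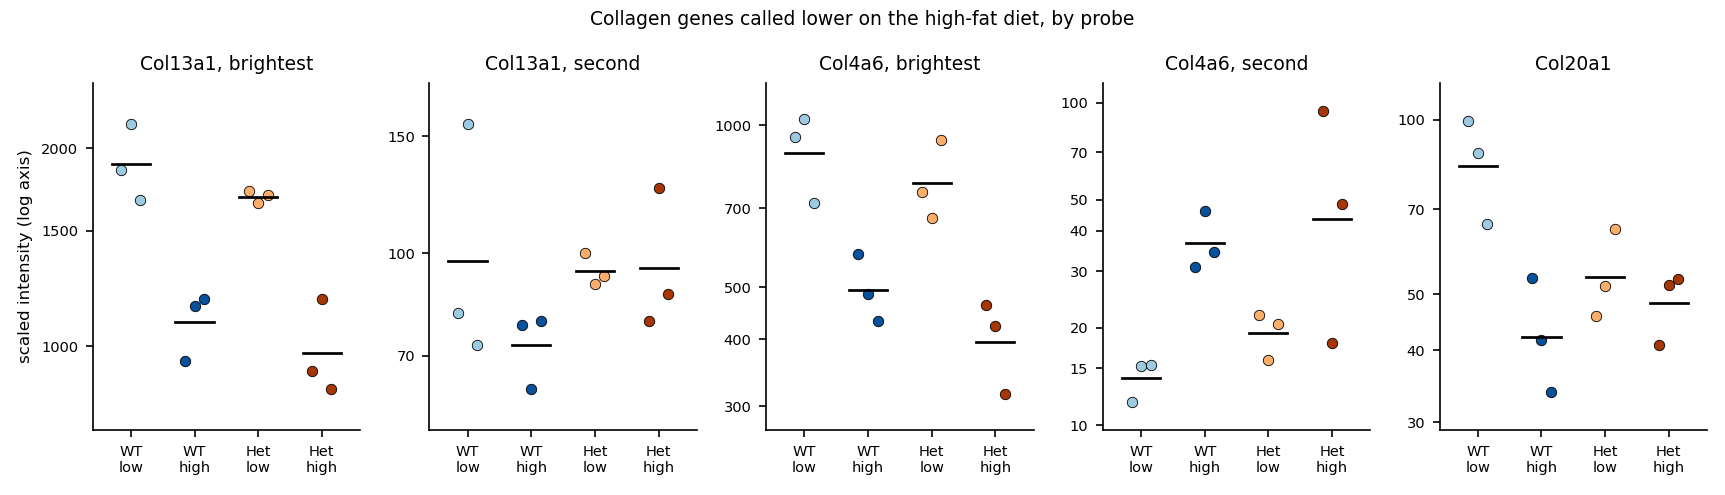
Scaled intensity (log axis) of the 3 collagen genes called lower on the high-fat diet over both genotypes, with the second probe where a gene has one that was kept; each point is 1 mouse and lines are geometric means. The brightest Col4a6 probe is lower on the high-fat diet, the second Col4a6 probe was well above background on 0 of 6 low-fat arrays, and the second Col13a1 probe overlaps between diets.

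Type VI collagen forms beaded filaments around cells from Col6a1, Col6a2 and a further chain such as Col6a3. Col6a3 read 1589.9, 1815 and 1520.4 in WT and 3599, 1326 and 2272 in Het on the high-fat diet, and 752, 763 and 827 in WT and 1243, 1072 and 861 in Het under low-fat feeding. No low-fat liver reached the high-fat range, and the difference was 1.08 ± 0.29 in Het (adjusted p = 0.0316) and, short of the threshold, 1.07 ± 0.29 in WT (adjusted p = 0.0547).

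Its partners were not called. Col6a1 read 234, 366 and 193 in WT and 326, 193 and 409 in Het on the high-fat diet and 161, 139 and 207 in WT and 276, 247 and 142 in Het under low-fat feeding, with overlap in both genotypes and 0.54 ± 0.24 over both (adjusted p = 0.112). Col6a2 read 84.7, 97.8 and 47.9 in WT and 93.5, 67.5 and 125 in Het against 74.8, 86.4 and 69.1 in WT and 88.9, 83.1 and 57.4 in Het, with 0.12 ± 0.21 over both (adjusted p = 0.681). The second Col6a2 probe gave 0.61 ± 0.19 (adjusted p = 0.0285 among all probes kept), so the probes of this gene differ in the call.

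Col8a1 encodes a short chain that forms hexagonal lattices under endothelium and appears in remodelling vessels. Its values were 488, 534 and 493 in WT and 909, 344 and 995 in Het on the high-fat diet, and 206, 230.3 and 189.7 in WT and 308, 301 and 221 in Het under low-fat feeding. The diets did not overlap, with 1.28 ± 0.33 in WT (adjusted p = 0.0484) and 1.31 ± 0.33 in Het (adjusted p = 0.0256). Its second probe gave 0.75 ± 0.32 over both genotypes (adjusted p = 0.0869). With the mean of both probes the Col8a1 calls within WT and within Het were lost, while the call over both genotypes held. Col8a2, the partner chain, gave 0.35 ± 0.22 over both genotypes (adjusted p = 0.251). Col8a2 was well above background on 2 of 3 WT and all 3 Het high-fat arrays, but on 1 of 3 arrays of each low-fat group. It thus passed the filter through the Het high-fat group, and its difference is set against arrays partly at background.

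Fibril-associated collagens have interrupted helices and lie on the surface of fibrils. Col12a1, which bridges type I fibrils and the surrounding matrix, read 62, 67.3 and 60.1 in WT and 88.8, 50 and 76.2 in Het on the high-fat diet, and 25, 22 and 25.5 in WT and 26.4, 33.4 and 16.7 in Het under low-fat feeding. It was well above background on all 6 high-fat arrays, on 2 of 3 WT low-fat arrays and on 1 of 3 Het low-fat arrays, so it passed the filter through the high-fat groups. With that limit it was higher by 1.39 ± 0.26 in WT (adjusted p = 0.0196) and 1.51 ± 0.26 in Het (adjusted p = 0.00607), without overlap.

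Col16a1, found on fibrils and near basement membranes, gave 1594, 1543 and 1388 in WT and 1689, 1229 and 1568 in Het high-fat livers, and 1042, 833 and 999.9 in WT and 1373, 1517 and 922 in Het in low-fat livers. The diets overlapped in Het but not in WT. It passed only over both genotypes, at 0.46 ± 0.14 (adjusted p = 0.0296), and in 7 of the 12 fits that leave out 1 array.

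Col20a1, another fibril-associated chain of which little is known in liver, gave 53.2, 41.6 and 33.8 in WT and 40.9, 51.9 and 53.1 in Het on the high-fat diet, and 99.7, 87.5 and 66.1 in WT and 45.8, 51.6 and 64.8 in Het under low-fat feeding. The diets were apart in WT, at -0.98 ± 0.21 (adjusted p = 0.0306), and overlapped in Het, at -0.15 ± 0.21 (adjusted p = 0.666). The difference between these was 0.83 ± 0.30 and did not pass as an interaction (adjusted p = 0.989). With normexp background correction the value over both genotypes was -0.17 in place of -0.57, and the call was lost.

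The other fibril-associated genes tested were Col9a2, Col9a3, Col14a1 and Col22a1, at -0.14 ± 0.15, 0.38 ± 0.33, 0.12 ± 0.18 and -0.43 ± 0.19 over both genotypes, none of them called. Col9a3 and Col22a1 were well above background on 6 and 8 of the 12 arrays. Both passed the filter through the Het high-fat group alone, so their differences rest partly on readings at background. Col14a1, a chain known from stellate cells, was well above background on all 12 arrays, with values between 5464 and 11703.

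The multiplexins carry large C-terminal domains that can be cut off, endostatin in the case of Col18a1. Col15a1, at home in vascular basement membranes, read 241, 233 and 352 in WT and 409, 332 and 383 in Het on the high-fat diet, and 111, 101 and 182 in WT and 165, 195 and 81.5 in Het under low-fat feeding. All high-fat livers were above all low-fat livers, by 1.43 ± 0.32 in Het (adjusted p = 0.0175) and, short of the threshold, 1.09 ± 0.32 in WT (adjusted p = 0.07). Col18a1, a known hepatocyte product, had values between 118353 and 141734, and its difference over both genotypes was 0.00 ± 0.07 (adjusted p = 0.993). Its probe was saturated on no array.

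Col13a1, a collagen anchored in the plasma membrane at cell contacts, was called lower in both genotypes. Its brightest probe, at chr10:61356987-61357046 on mm7, gave 949, 1154 and 1181 in WT and 918, 1179.8 and 859.9 in Het on the high-fat diet, and 1856, 2182 and 1669 in WT and 1722, 1649.8 and 1699 in Het under low-fat feeding. No high-fat liver reached the low-fat range, and the difference was -0.80 ± 0.15 in WT (adjusted p = 0.0216) and -0.79 ± 0.15 in Het (adjusted p = 0.00963).

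The second Col13a1 probe lies at chr10:61385926-61386295 and had values between 62.3 and 157. It overlapped between the diets and gave -0.20 ± 0.20 over both genotypes (adjusted p = 0.443). With the mean of both probes Col13a1 stood at -0.50 over both genotypes and the call held, while the calls within WT and within Het were lost. Col23a1, another membrane collagen, had 0.89 ± 0.34 over both genotypes (adjusted p = 0.0678). It was well above background on none of the Het low-fat arrays and 2 of 3 Het high-fat arrays, whose values overlapped. It passed the filter through the WT high-fat group alone. Col7a1, the anchoring fibril of skin, had -0.23 ± 0.12 (adjusted p = 0.163).

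Among the genes that were not tested, Col2a1, the fibril of cartilage, had a brightest probe that the scanner software marked as an outlier on 4 arrays. A second Col2a1 probe, printed as 10 spots and well above background on all 12 arrays, gave 0.67 ± 0.29 over both genotypes (adjusted p = 0.087). The remaining 9 were well above background on 0 to 7 arrays, and their values between the diets are not interpreted. Across the tested genes with a further probe that was kept, 10 of 13 further probes had the sign of the brightest probe over both genotypes. These include the second probes of Col4a4 and Col4a6, which passed the filter through the diet where each read higher. They also include that of Col18a1, whose brightest probe differed by 0.00. The count is therefore no test of agreement between probes.

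The rise was not even across animals. Over the 12 genes called higher over both genotypes, Het high-fat replicate 2 was the lowest of its group 12 times, Het low-fat replicate 3 the lowest 11 times, WT high-fat replicate 3 the lowest 9 times and WT low-fat replicate 3 the highest 9 times. Without Het high-fat replicate 2 the counts of called collagen genes were 9 in WT, 11 in Het and 16 over both genotypes, beside 8, 11 and 15 with it. The WT count changed with the array left out. It was 0 without WT high-fat replicate 2, without WT high-fat replicate 3 or without WT low-fat replicate 1. It was 1 without WT high-fat replicate 1 and 5 without Het low-fat replicate 1. Without replicate 2 of the WT low-fat group it was 3, and without replicate 3 it was 4. WT calls over all genes fell in each of these fits, from 1009 with every array in. Dropping the WT high-fat arrays in turn, by replicate number, left 254, 245 and 186 such calls. For the WT low-fat arrays 208, 805 and 346 were left, and for Het low-fat replicate 1 670. The lower counts therefore do not single out the collagen genes or particular mice. The Het count was 4 without Het high-fat replicate 1 and 6 without replicate 3, and 7, 7 and 5 without Het low-fat replicates 1, 2 and 3. Across those fits the Het calls over all genes lay between 874 and 2440, beside 2702 with every array in. The count of collagen genes over both genotypes stayed between 14 and 16 whichever array was left out. Calls in WT held in 6 of these 12 fits for Col1a1 and Col4a6, 3 for Col8a1, 7 for Col5a2, and 8 for Col12a1, Col13a1 and Col20a1. Calls in Het held in 7 for Col8a1 and Col6a3 and 8 for Col4a2.

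Markers of cells that make or surround collagen were measured on the same arrays, and their counts stand beside 2.73% of all genes tested called higher in WT, 7.6% in Het and 13.4% over both, and 16.7% called lower over both. Of 13 stellate cell markers, 1 was called higher in each genotype, which in Het is close to the share of all genes. Over both genotypes 3 were, among them Pdgfrb, the receptor of their main mitogen, at 0.80 ± 0.12 (adjusted p = 0.00162). The rest were not called higher, and Lrat, Reln, Hgf, Lhx2 and Hand2 overlapped between the diets in both genotypes. The summed intensity of the 13 ranged from 19031 to 20313 in WT and 18224 to 21160.1 in Het on the high-fat diet. Under low-fat feeding it ranged from 16933 to 18690.0 in WT and 16605 to 20777 in Het. Of 6 myofibroblast markers only Acta2, smooth muscle actin, was called, at 0.54 ± 0.13 over both genotypes (adjusted p = 0.0113). The summed intensity of the 6 overlapped between the diets in both genotypes. It ranged from 23439 to 29426 in WT and 23720 to 35657 in Het on the high-fat diet. Under low-fat feeding it ranged from 23200 to 29590 in WT and 22609.5 to 27618 in Het.

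Markers of portal fibroblasts and mesothelium were called higher in 5 of 9 cases over both genotypes, and their sums ranged from 4619 to 5096 and 3661 to 6271 on the high-fat diet against 2487 to 3368 and 2835 to 4527 under low-fat feeding, WT first. Cholangiocyte markers were called higher in 5 of 8 cases, with sums from 20288 to 24759 and 13319.7 to 70598 against 6837 to 9519.9 and 7319 to 9816, of which Spp1 makes up most. Het high-fat replicate 2, the low animal of the collagen genes, was the lowest of its group for 7 of 8 cholangiocyte markers, 7 of 9 of portal fibroblasts and mesothelium and 7 of 13 of stellate cells. It was the lowest for 3 of 12 macrophage markers and the highest for 5, and the lowest for 1 of 11 endothelial markers and the highest for 7. Of 6 myofibroblast markers it was the lowest for 2 and the highest for 0, and of 9 hepatocyte markers the lowest for 0 and the highest for 6. The part of these cell markers in the collagen differences was not tested.

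Macrophage markers were called higher in 5 of 12 cases and lower in 1, and endothelial markers higher in 1 of 11 and lower in 5. Gpnmb, a macrophage marker, was well above background on 1 WT and 2 Het low-fat arrays, and passed the filter through the high-fat groups. Mmp12 was well above background on 1 of 3 WT low-fat arrays. Macrophage sums overlapped between the diets in both genotypes. They ranged, WT first, from 99697.5 to 108530 and 68635 to 128797 on the high-fat diet against 85538 to 112614 and 68894 to 123497 under low-fat feeding. Endothelial sums ranged from 40963 to 44526 and 38491 to 46633 on the high-fat diet against 51064 to 58480.2 and 47385 to 52749.8 under low-fat feeding. Of 9 tested hepatocyte markers 0 were called higher and 2 lower over both genotypes, and of 5 tested lymphocyte markers 0 higher and 1 lower, where 16.7% of all genes tested were called lower. Of 6 adipocyte markers 1 of 2 tested was called higher, and Adipoq, Lep, Plin1 and Retn did not pass the filter. Of 6 cartilage markers 0 of 2 tested were called, and Matn1, Matn3, Comp and Hapln1, did not pass the filter either.

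Collagen chains are hydroxylated, glycosylated and folded in the endoplasmic reticulum, trimmed outside the cell and then cross-linked. Of 36 genes for these steps 31 were tested, and 2 were called higher and 1 lower in WT, 6 and 3 in Het, and 11 and 4 over both genotypes. Of all genes tested 2.73% were called higher and 3.19% lower in WT, 7.6% and 8.26% in Het, and 13.4% and 16.7% over both, so the share of lower calls over both genotypes, 4 of 31, is not above that of all genes. The median difference was 0.29 over both genotypes, beside -0.03 for all genes tested. Serpinh1, the collagen-specific chaperone HSP47, read 7572, 7389 and 8161 in WT and 9938, 6047 and 8603 in Het on the high-fat diet, and 3276, 4125 and 5590.4 in WT and 4668, 5414 and 4283 in Het under low-fat feeding. All high-fat livers were above all low-fat livers, by 0.87 ± 0.22 in WT (adjusted p = 0.0451) and 0.75 ± 0.22 in Het (adjusted p = 0.041).

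Of 8 tested genes for prolyl hydroxylation, which stabilises the helix, 4 were called higher over both genotypes, namely P3h3 at 0.61 ± 0.09, P4ha1 at 0.55 ± 0.12, P3h4 at 0.54 ± 0.13 and Crtap at 0.35 ± 0.11. The lysyl hydroxylase Plod1 was higher at 0.51 ± 0.10 over both genotypes. The galactosyltransferases that decorate hydroxylysine went opposite ways, Colgalt1 higher at 0.41 ± 0.10 and Colgalt2 lower at -1.07 ± 0.14. Colgalt2 was well above background on 2 of 6 high-fat arrays and on all 6 low-fat arrays, so it passed the filter through the low-fat groups.

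Cross-linking enzymes, which tie fibrils together, were called in 2 of 4 tested cases over both genotypes, Loxl1 at 1.09 ± 0.21 and Loxl2 at 1.04 ± 0.22. Of the genes for removal of the propeptides, Adamts2 and Pcolce were higher, at 0.65 ± 0.18 and 0.49 ± 0.15, and Pcolce2 was lower, at -0.80 ± 0.19. Mia2 and Mia3, cargo receptors that load procollagen and other large cargo into carriers, were lower at -0.38 ± 0.10 and -0.47 ± 0.14. Within propeptide removal and within folding and export, genes were thus called in both directions. Colgalt1, P3h4, Crtap, Adamts2, Pcolce, Pcolce2, Mia2 and Mia3 were called but lie outside the naming rule, and were singled out after their values were seen, as was Nid1 among the binding partners.

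**Figure D4:**
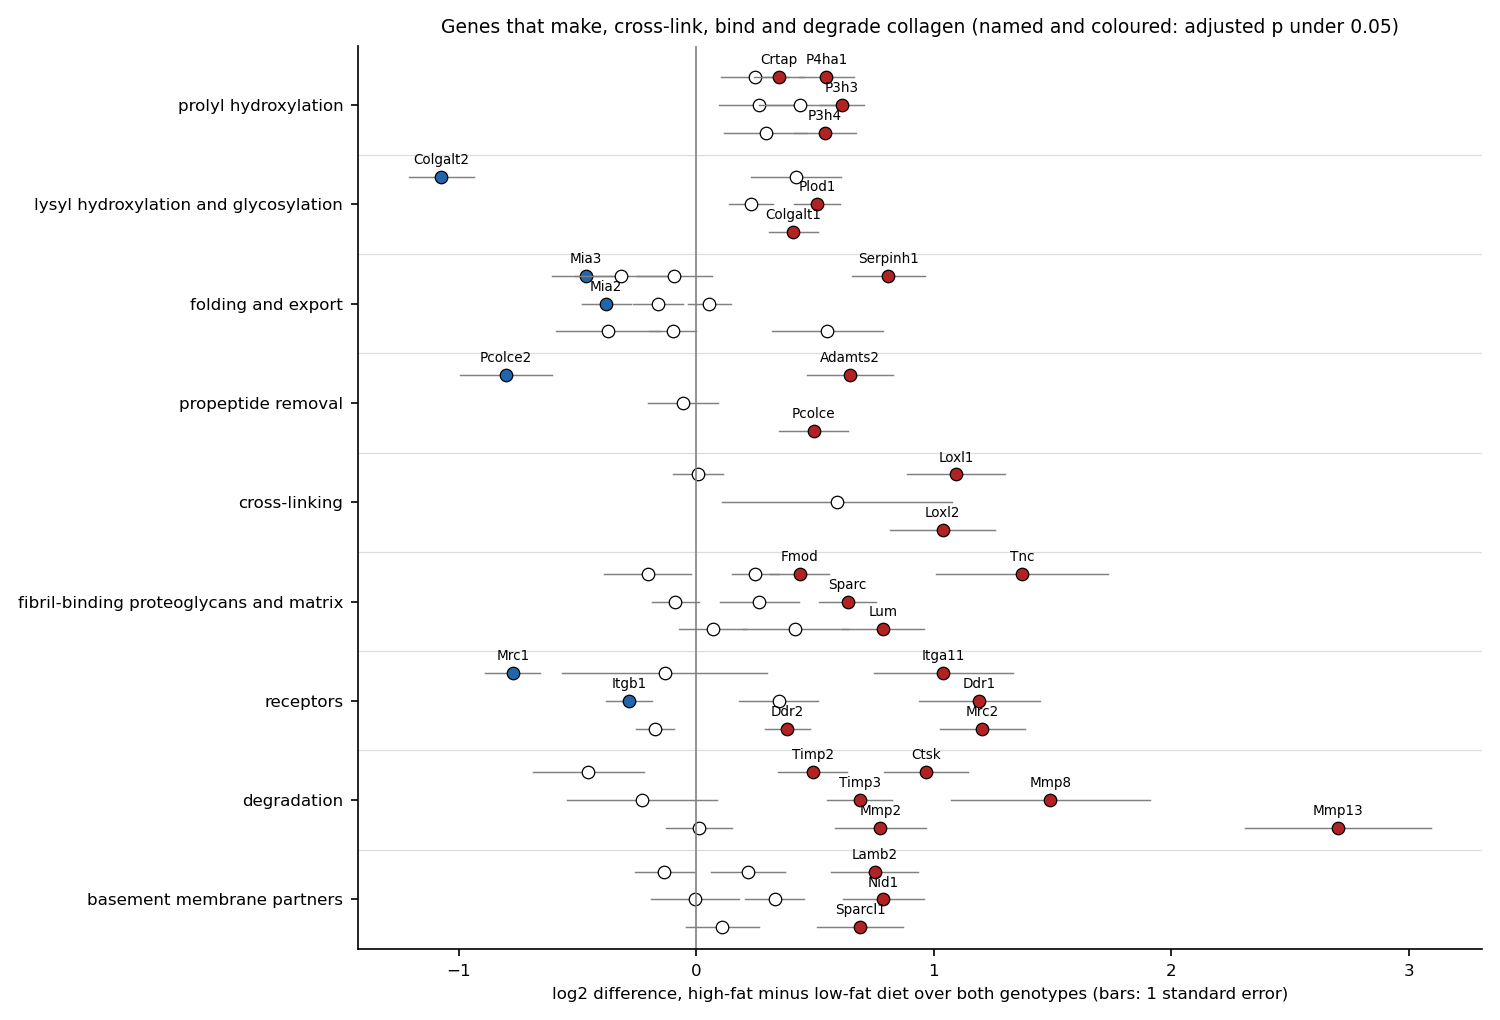
Log2 difference between the diets over both genotypes for the tested genes that make, bind or degrade collagen, in rows by step; bars are 1 standard error, red and blue points are called higher and lower, and heights within a row carry no meaning. Most called points lie right of 0; Mmp13, at 2.70, and Colgalt2, at -1.07, were at background on part of the arrays of the diet where they are low.

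Proteins that bind, sense or degrade collagen were tested for 36 of 39 genes, with 3 called higher and 0 lower in WT, 9 and 1 in Het, and 17 and 2 over both genotypes. Of all genes tested 2.73% and 3.19% were called higher and lower in WT, 7.6% and 8.26% in Het, and 13.4% and 16.7% over both. The list had a median of 0.36 over both. Mmp13, the main interstitial collagenase of mice, read 285, 173 and 117 in WT and 306, 133 and 333 in Het on the high-fat diet, and 30.8, 13.3 and 28.8 in WT and 47.5, 86.1 and 21.3 in Het under low-fat feeding, where 3 of 6 arrays were well above background. It passed the filter through the high-fat groups, and the size of its difference is set against arrays partly at background. With that limit it was higher by 2.98 ± 0.55 in WT (adjusted p = 0.0196) and 2.42 ± 0.55 in Het (adjusted p = 0.0182). Ctsk, a lysosomal protease that cuts the helix, rose over both genotypes by 0.97 ± 0.18, and the protease inhibitor Timp3 by 0.69 ± 0.14.

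Among receptors, Mrc2, which takes up collagen fragments, was higher by 1.02 ± 0.25 in WT (adjusted p = 0.0422) and 1.38 ± 0.25 in Het (adjusted p = 0.00811). Its relative Mrc1, the mannose receptor of sinusoidal endothelium and macrophages, was lower over both genotypes, at -0.77 ± 0.12. Ddr1, a kinase receptor for fibrillar and type IV collagen, was higher over both by 1.19 ± 0.25. Of the fibril-binding proteins, Sparc was called in both genotypes, at 0.67 ± 0.17 in WT and 0.61 ± 0.17 in Het, and of the basement membrane partners Nid1, which joins type IV collagen to laminin, was higher over both by 0.79 ± 0.17.

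Between genotypes no collagen gene passed the test on either diet, over both diets or as an interaction, where 0% of all genes tested passed in limma in each of these comparisons. At an unadjusted p under 0.05 there were 2 collagen genes on the high-fat diet and 1 under low-fat feeding, 2 over both diets and 2 for the interaction, beside 1475, 341, 824 and 828 of all genes tested. On the high-fat diet 24 of 30 genes were higher in Het than in WT livers, with a median of 0.22 beside 0.03 for all genes tested, of which 54.9% were higher. Under low-fat feeding 20 of 30 were higher, with a median of 0.12 beside 0.00 and 49.1%. These medians rest on single arrays. On the high-fat diet the median was 0.098 without WT replicate 3, 0.13 without Het replicate 1 and 0.36 without Het replicate 2, and 0.11 with scaling to each array's median. With slide as a random block it was 0.14, and 19 of 30 genes were higher with the trend on GC content removed. Under low-fat feeding it was 0.053 and 0.070 without WT replicates 1 and 2, 0.036 and 0.015 without Het replicates 1 and 2, and 0.26 without Het replicate 3, and 0.058 with no filter, with 15 of 30 genes higher without Het replicate 2. The groups did not overlap for 4 of 30 genes on the high-fat and 2 of 30 under low-fat feeding, where 14.9% and 4.35% of all genes tested did not overlap.

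For Col1a1 the Het livers were higher by 0.60 ± 0.48 on the high-fat diet, with a 95% interval from -0.46 to 1.65 (limma, adjusted p = 0.786). Under low-fat feeding the value was 0.60 ± 0.48, with an interval from -0.46 to 1.65. For Col3a1 the intervals ran from -0.46 to 1.12 and from -0.33 to 1.25. These data therefore do not fix whether Het and WT livers differ in either gene.

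Slide 2 held WT high-fat replicate 3 with all Het high-fat arrays, and slide 3 all WT low-fat arrays with Het low-fat replicate 1, so a fit with slide as a block compares the genotypes on these slides alone. It gave Col1a1 0.81 ± 0.70 on the high-fat and 1.11 ± 0.70 under low-fat feeding, with medians of 0.39 and 0.24 over the 30 genes. These values rest on 1 WT array on the high-fat and 1 Het array on the low-fat diet. Over the 12 genes called higher, that WT array was the lowest of its group 9 times and that Het array the highest 7 times. Slide and the choice of these single mice thus cannot be told apart here. Col9a3, a chain of the cartilage fibril surface, entered the test through the Het high-fat group alone, with 12.6, 6.72 and 19.5 in WT and 32.9, 33.4 and 52.4 in Het livers on the high-fat diet. Well above background were 1 of 3 WT arrays and all 3 Het arrays, and the groups were apart by 1.71 ± 0.47 (adjusted p = 0.446), a size set against arrays mostly at background. With slide as a block the value was 0.99 ± 0.43.

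The interaction tests whether the diet difference itself depended on genotype. Over the 12 genes called higher over both genotypes it lay between -0.41 ± 0.28 for Col16a1 and 0.46 ± 0.61 for Col1a2, and none passed. The interaction was 0.00 ± 0.68 for Col1a1, -0.13 ± 0.51 for Col3a1, 0.03 ± 0.47 for Col8a1 and 0.12 ± 0.36 for Col12a1. With a 95% interval from -1.49 to 1.49 for Col1a1, sizeable differences in either direction remain possible. The interval for Col12a1 ran from -0.68 to 0.92. Its low-fat readings were partly at background, so that interval does not bound the difference between its diet responses.

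**Figure D5:**
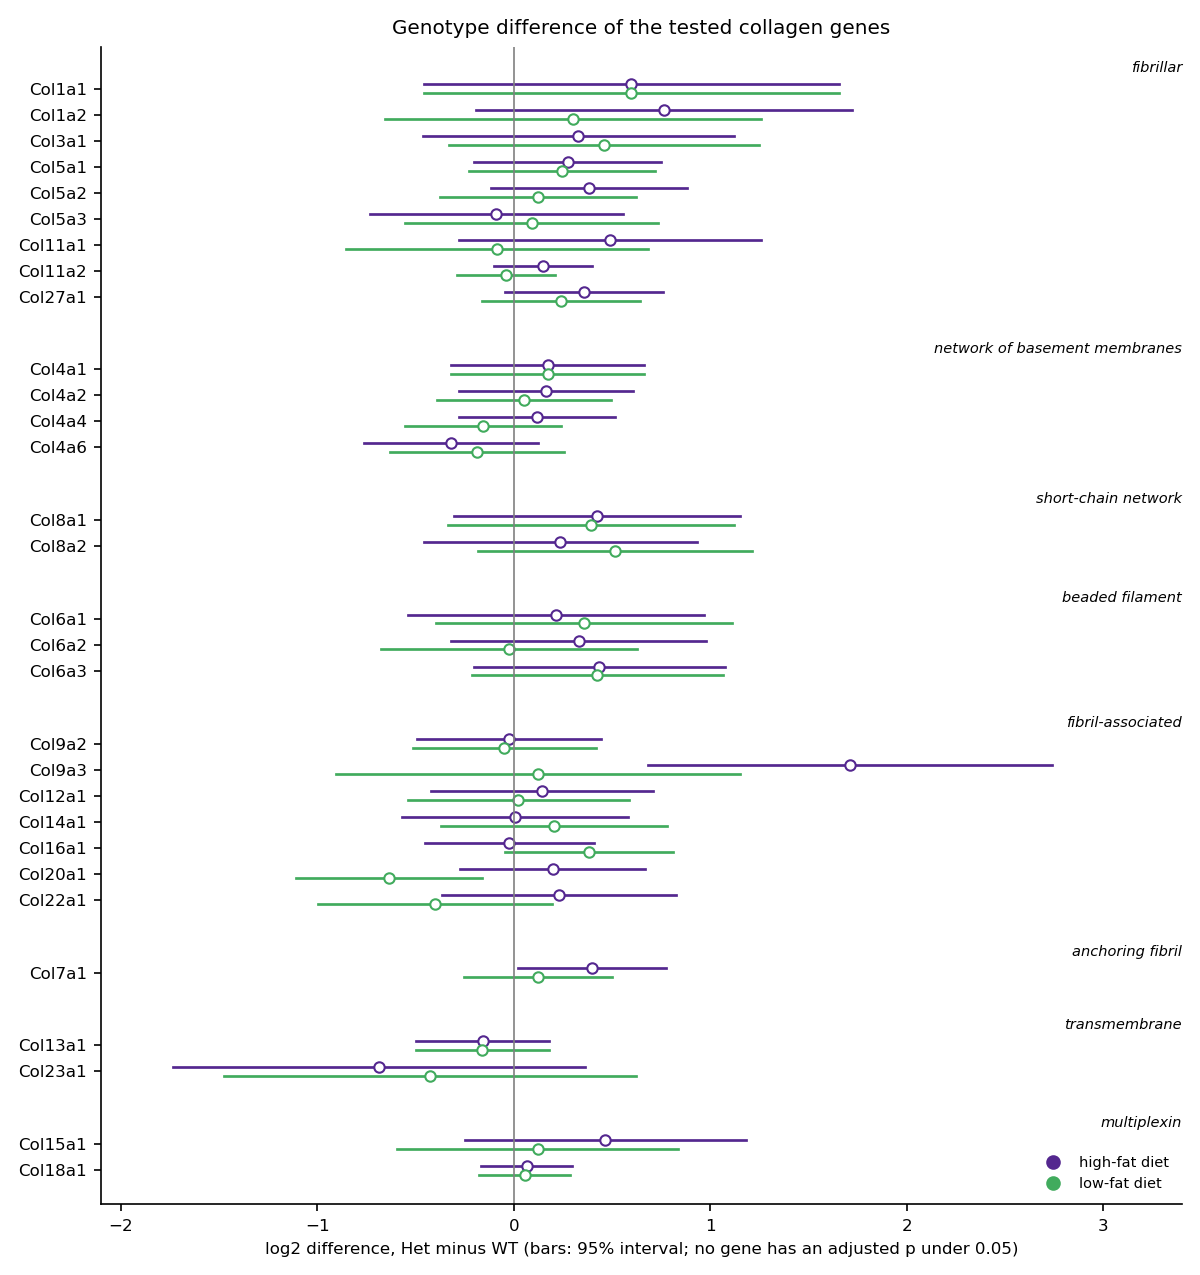
Log2 difference between Het and WT livers for the 30 tested collagen genes on the high-fat (purple) and the low-fat diet (green); bars are 95% intervals, not adjusted for the number of genes, and open points mark that no gene passed the test. Most points lie right of 0 and most bars cross it; Col9a3 on the high-fat diet, at 1.71, is set against WT arrays mostly at background.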

How the data were processed

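Total liver RNA of 12 mice, 3 in each of 4 groups, was labelled with Cy3 and hybridised to 1-colour Agilent mouse arrays; the replicates are separate mice, per the series design. The deposited files hold each array's spot intensity as the authors' scanner software wrote it (the submitters' processing notes name Agilent Feature Extraction 9.5), with the processed intensity already corrected for background, and per-spot flags for control, outlier, background and saturation. Probe coordinates are on mm7 per the file headers. The number of arrays limits the precision, and every deposited column of a sample that was needed was used, with 0 left aside.

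Control spots and 1344 outlier spots were left out, the log2 of the deposited intensity was taken relative to each array's 75th percentile, spots of a probe were averaged, and probes well above background throughout at least 1 group were kept (25296 of 41174 probes). A collagen gene was represented by its brightest probe of all, and any other gene by its brightest probe kept; 17041 genes were tested. limma 3.58.1 (R 4.3.3) fitted the 4 group means in 1 model with 8 residual degrees of freedom, and p-values were adjusted by Benjamini-Hochberg with a threshold of 0.05. Python 3.11.15 with pandas 2.3.3 read the files and matplotlib 3.10.9 drew the plots. The scripts were tested on simulated data.

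Comparisons were diet within each genotype and over both, genotype within each diet and over both, and their interaction; comparisons within a genotype and over both share arrays. No pairing of same-numbered replicates was used. Per-array values are given for collagen genes called in any comparison and for the other chains of types I, III, IV, V and VI; of the other lists, called genes were named, up to 6 of lowest p per list and comparison. Members and lists were chosen with earlier results of these data known. Alternatives were other background correction, scaling, filters, probe rules, blocks and each array left out.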

Additional observations from a re-analysis of the deposited data

Results flagged for a closer look

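For Col9a1, a fibril-associated chain of cartilage, the readings of the diets lay apart in opposite ways in the genotypes, by -0.82 on the log2 scale in WT and 1.39 in Het. Its probe was well above background on 1 Het high-fat array and on 0 of the other 11, so these are differences mostly between readings at background and show no direction of the gene. It did not enter the test, and the difference between the genotypes was not tested.

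For Col10a1, the short chain of growth plate cartilage, the readings of the genotypes lay apart in opposite ways on the diets, by 1.27 under high-fat and -1.01 under low-fat feeding. It was well above background on 0 of 6 high-fat arrays and on 1 of 6 low-fat arrays, so these too are readings at background with no direction. The difference between the diets was not tested.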

How the results depend on the processing

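The count of collagen genes called over both genotypes was 15 and lay between 14 and 19 in all settings run, and between 14 and 16 with each array left out. The counts within a genotype were less firm. In WT, 8 genes were called. Without a filter on dim probes 0 were, with slide as a random block 14 (its estimated correlation was below 0, at -0.18), and with each array left out 0 to 9. WT calls over all genes moved the same way, from 1009 of 17041 to 156 of 27667 without the filter and 3596 of 17041 with the slide block. In Het, 11 were called; without the filter 6, with only the groups of the comparison in the fit 5, and with each array left out 4 to 11. With the replicate number as a block the counts were 5 in WT, 9 in Het and 16 over both genotypes, and 0 for each genotype comparison and the interaction. Same-numbered mice correlated between -0.47 and 0.46 in their deviations from the group means, and 3 of 12 arrays correlated best with their own number. No pairing by number was thus visible, though a weak pairing would not show in this way. Counts between genotypes and for the interaction were 0 in every setting run. With the mean of all kept probes Col4a6 turned to 0.27 in WT, 0.095 in Het and 0.18 over both genotypes; its second probe was well above background on 0 of 6 low-fat arrays. Over both genotypes the call was lost for Col16a1 without the filter or with the trend on GC content removed, for Col5a1 with the mean of probes and for Col20a1 with normexp. For all other moves the cause was not tested.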
